A study of Macaca mulatta with 12 samples.

Results

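The pre-miRNAs mml-mir-489, mml-mir-653, mml-mir-599 and mml-mir-875 were followed across small RNA profiles of rhesus macaque tissues. They were chosen by name as 2 pairs of neighbours, and because the kidney level of their miRNAs was already known to be high in these profiles. They are 4 of the 832 pre-miRNAs read from the study's list, and their 8 mature miRNAs are 8 of 1221 distinct mature sequences. The choice used the kidney levels, so that the kidney values are described without a test. The 12 profiles came from 8 tissues of 2 wild-type, untreated animals, labelled as 36 months old. Of these tissues, 4 were profiled in duplicate (muscle, kidney, large intestine, small intestine) and 4 in a single profile (occipital lobe, spinal cord, lung, liver). The labels do not say whether profiles of the same tissue came from different animals, so that the spread between them may be technical. Whole tissues were sequenced, so that fewer cells of a type and less miRNA per cell cannot be told apart.

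A pre-miRNA is a hairpin from which the enzyme Dicer cuts a duplex. The strand from the 5’ side of the hairpin is named 5p and the strand from the 3’ side 3p, and usually one of them is kept by an Argonaute protein. Bases 2 to 8 of the kept strand, the seed, pair with target mRNAs, so that a shift of the 5’ end changes the targets that can be recognised. Neighbouring miRNAs are often cut from the same primary transcript. In the reference gene table, MIR489 and MIR653 are nearest neighbours inside CALCR, the gene of the calcitonin receptor. MIR599 and MIR875 are nearest neighbours inside VPS13B, whose protein takes part in membrane traffic and is lost in Cohen syndrome. TFPI2 and VPS50 flank the first pair as the next protein-coding genes, and OSR2 and COX6C flank the second. The miRNA miR-489 is known from work on quiescent muscle stem cells.

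The sequences of the first pair are shown because the counts of mml-miR-653-5p turned on where its reads begin. The capitals mark the seed, and the reads are the commonest that matched each hairpin exactly.
mml-miR-489-3p, annotated and commonest read: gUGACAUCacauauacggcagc
mml-miR-489-5p, annotated, without any read: gGUCGUAUguguggcgccauuu
mml-miR-653-5p, annotated: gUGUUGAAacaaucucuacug
mml-miR-653-5p, commonest read: uUGAAACAaucucuacugaacc
mml-miR-653-3p, annotated: uUCACUGGaguuuguuucaaua
mml-miR-653-3p, commonest read: aCUGGAGUuuguuucaauauug
The commonest read of mml-miR-653-5p began 3 nucleotides downstream of the annotated miRNA and carried another seed. None of these seeds was shared with another of the mature names in the list.

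Levels are given as reads per 10000000 valid reads (RPTM), for which 1 read stood for 0.391 to 0.452 RPTM. By the rule of assignment used first, a read had to match the hairpin exactly, with each end at most 2 nucleotides from the annotated end. By the wider rule, every exactly matching read was given to the 5p or the 3p arm by the side of the hairpin on which its centre lay. Profiles held 22118095 to 25579064 valid reads, of which 35.9% to 68.4% were assigned to miRNAs by the first rule. Of 11 tissue marker miRNAs, 9 were higher in their own tissue than in every other profile. The exceptions were mml-miR-194-5p, which was higher in liver than in the lowest intestine profile, and mml-miR-204-5p, which was at least as high in occipital lobe as in the lower kidney profile. Where a member had 0 reads, 3 reads were taken as the limit that a count of 0 allows, which is 1.17 to 1.36 RPTM. Intervals and limits cover counting error only.

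In kidney, mml-miR-599-5p and mml-miR-489-3p were the leading arms by the first rule. The level of mml-miR-489-3p was 86.8 RPTM in kidney 1 and 64.9 RPTM in kidney 2, from 222 and 157 reads (75.8 RPTM ± 15.5, SD, n = 2). It was 35.1 RPTM in spinal cord, 22.9 and 23.5 RPTM in muscle, 10.6 RPTM in small intestine 1, 3.04 RPTM in occipital lobe and 0.807 RPTM in liver. No read was found in small intestine 2, lung and both profiles of large intestine. Both kidney profiles were thus the highest, and the lower of them was 1.85 times the level of spinal cord. This ratio is by valid reads. The TMM factors, by which the fits below scale each profile, were 0.8356 and 0.623 in kidney and 2.486 in spinal cord. On that scale the ratio is larger. The counting interval of spinal cord, 28.4 to 43.5 RPTM, overlapped that of muscle 1, 17.6 to 29.9 RPTM. Overlap alone does not show that the levels were equal, and the difference between these profiles was not tested.

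The level of mml-miR-599-5p was 161 RPTM in kidney 1 and 169 RPTM in kidney 2, from 412 and 408 reads (165 RPTM ± 5.34, SD, n = 2). It was 6.26 and 1.74 RPTM in muscle, 2.61 RPTM in occipital lobe, 0.837 RPTM in spinal cord and 0.422 RPTM in small intestine 2. The remaining 5 profiles had no read. The lower kidney profile was 25.7 times muscle 1, the highest profile outside kidney, and 96.7% of all 848 reads came from kidney. In comparison, 62.4% of the 607 reads of mml-miR-489-3p came from kidney. The pattern of mml-miR-599-5p was therefore nearly limited to kidney in these profiles, whereas mml-miR-489-3p was also read in spinal cord and muscle.

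**Figure D1:**
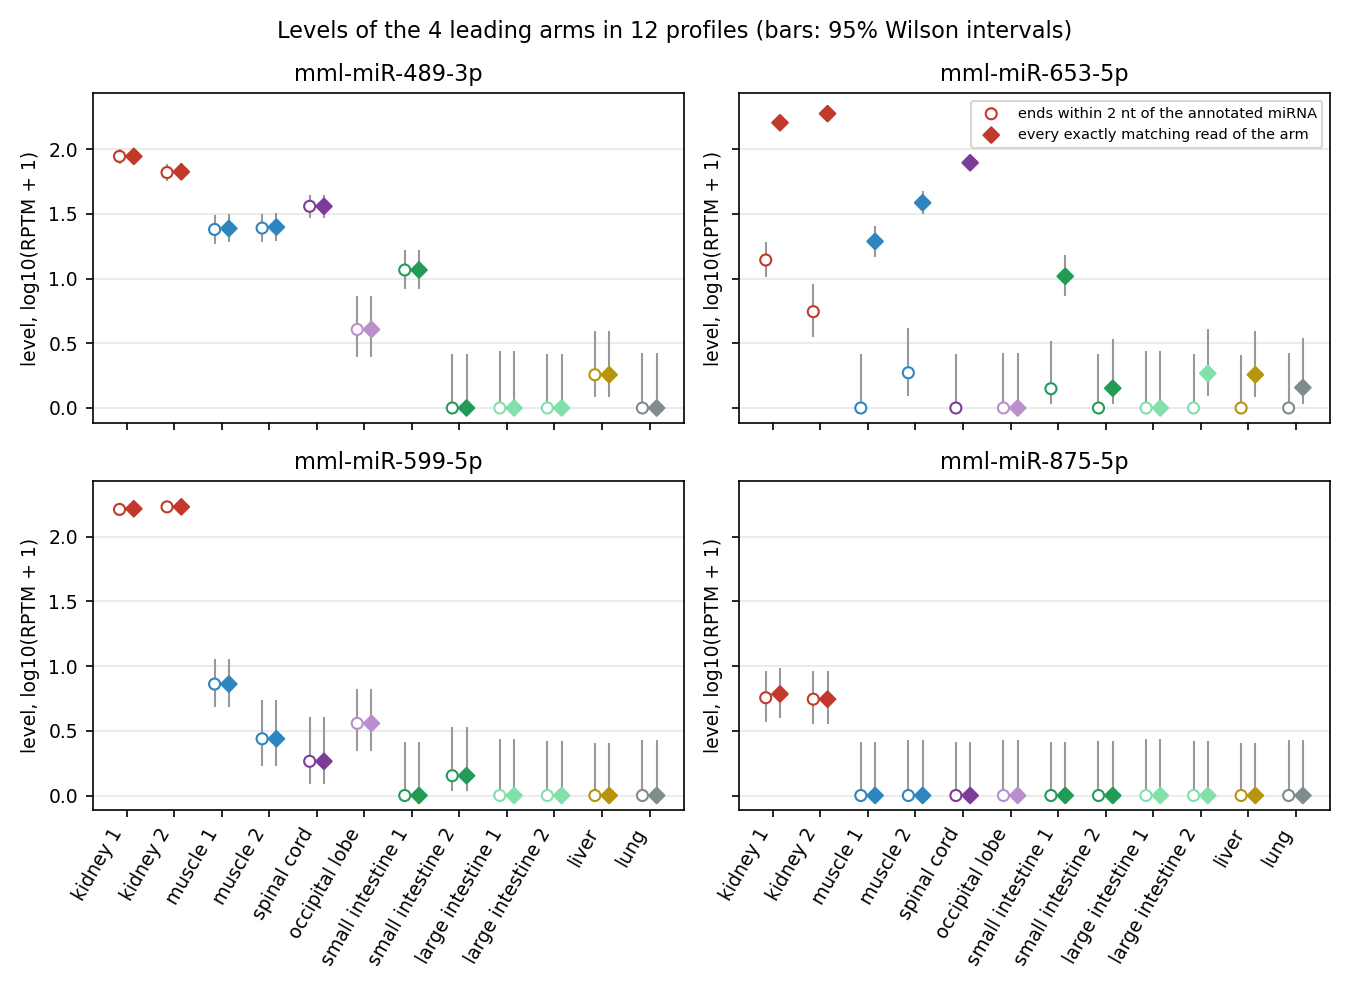
Levels of the 4 leading arms in each of the 12 profiles on a log10(RPTM + 1) scale, with 95% Wilson intervals as vertical bars. Open circles count reads with both ends within 2 nucleotides of the annotated miRNA and filled diamonds count every exactly matching read of the arm. The symbols part only for mml-miR-653-5p, whose kidney level is 12.9 and 4.55 RPTM by the circles and 159 and 187 RPTM by the diamonds.

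For mml-miR-653-5p the answer depended on the rule of assignment. By the first rule, its level was 12.9 RPTM in kidney 1 and 4.55 RPTM in kidney 2, and only 3 reads were counted in the other 10 profiles. Of its 1202 exactly matching reads, however, 1155 (96.1%, Wilson 95% interval 94.8% to 97.0%) began 3 nucleotides downstream of the annotated start. A further 28 reads began 1 nucleotide downstream and 19 at the annotated start. The shifted start made up 91.9% of the reads in kidney 1 and 97.6% in kidney 2, and all 185 reads in spinal cord and all 44 in muscle 1. The annotated miRNA itself was read 6 times in the 12 profiles, while the commonest read was found 805 times and its form of 21 nucleotides 331 times. Because the tolerance was 2 nucleotides, the first rule left out nearly all reads of this miRNA.

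Such a shift was rare among the miRNAs of these profiles. Of 391 arms with at least 100 exactly matching reads, 64 (16.4%) had a commonest start other than the annotated one, but only 10 (2.56%) had one more than 2 nucleotides away. The reads of mml-miR-489-3p began at the annotated start in 95.6% of 611 reads. Those of mml-miR-599-5p did so in 88.7% of 853 reads, and 9.96% began 1 nucleotide upstream.

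**Figure D2:**
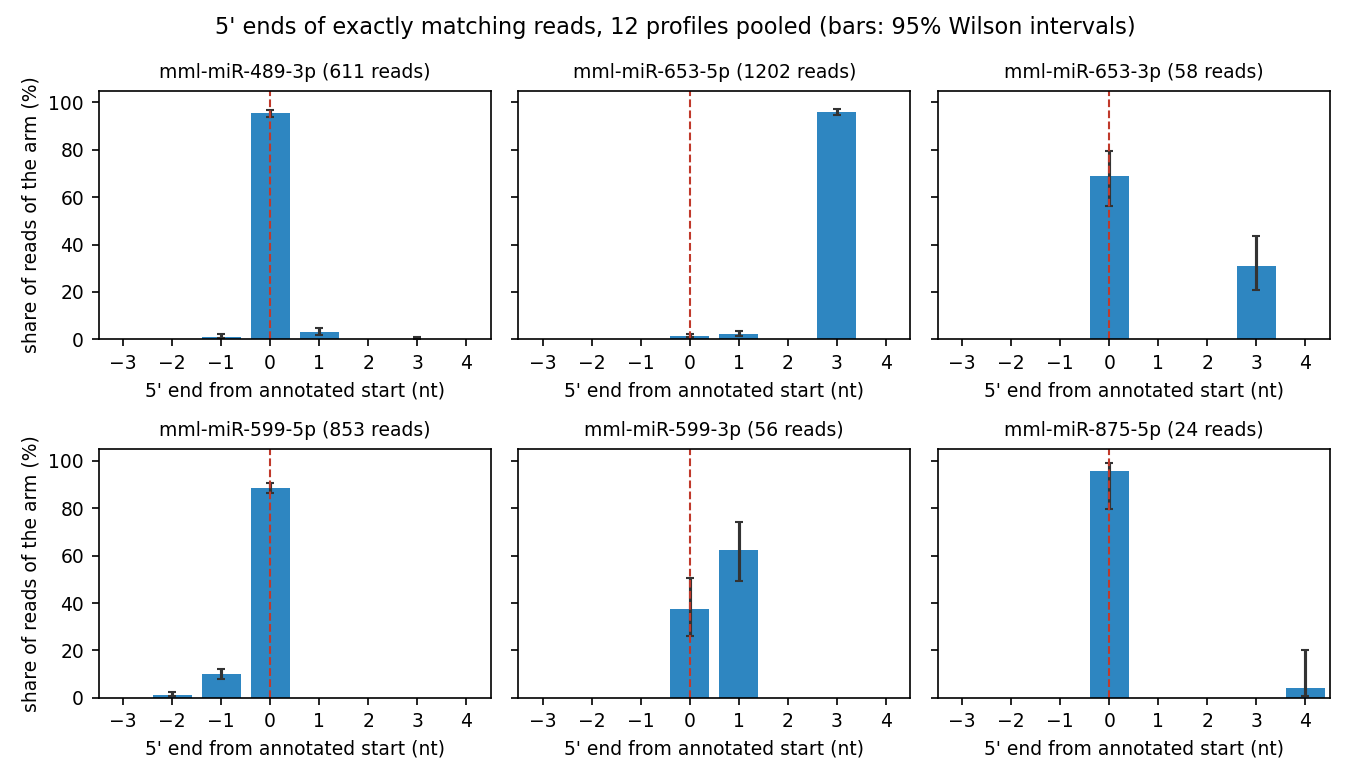
Share of exactly matching reads of an arm (vertical axis, %) by the distance of their 5’ end from the annotated start in nucleotides (horizontal axis), with the 12 profiles pooled and 95% Wilson intervals. The dashed line marks the annotated start, at which 95.6% of mml-miR-489-3p reads and 1.58% of mml-miR-653-5p reads begin.

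With every exactly matching read counted, mml-miR-653-5p reached 159 RPTM in kidney 1 and 187 RPTM in kidney 2 (173 RPTM ± 19.9, SD, n = 2). It was 77.4 RPTM in spinal cord, 18.4 and 37.5 RPTM in muscle and 9.41 RPTM in small intestine 1. Small intestine 2 (0.422 RPTM), lung (0.437 RPTM), liver (0.807 RPTM) and large intestine 2 (0.850 RPTM) had 1 or 2 reads each, and large intestine 1 and occipital lobe had none. Kidney was again the highest, with the lower profile at 2.05 times spinal cord by valid reads without TMM factors, and 71.4% of the reads came from kidney. The profiles with more than a few reads were thus those of kidney, spinal cord, muscle and small intestine 1, which were also the highest for mml-miR-489-3p. The counting intervals of the muscle profiles, 13.7 to 24.6 and 30.3 to 46.3 RPTM, did not overlap. By this rule the levels of mml-miR-489-3p and mml-miR-599-5p moved little, to 76.3 and 166 RPTM on average in kidney.

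The neighbours mml-miR-489-3p and mml-miR-653-5p thus followed each other over the profiles by the wider rule. Pearson's r of log2(RPTM + 1) was 0.956 and Spearman's rho 0.865 over the 12 profiles, and 0.928 and 0.775 over the 10 profiles outside kidney. By the first rule, r was 0.694 with and 0.493 without kidney. These values are descriptions without a test, and some of the profiles are from the same tissue. In occipital lobe the pair parted, with 7 reads of mml-miR-489-3p and none of mml-miR-653-5p, although 0 of 7 reads still allows a share of up to 35.4% (Wilson 95% interval). The lowest share in a profile with at least 20 reads of both was 44.0%, in muscle 1 (34.7% to 53.8%). The other arm, mml-miR-653-3p, had 1 read in occipital lobe by the wider rule.

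**Figure D3:**
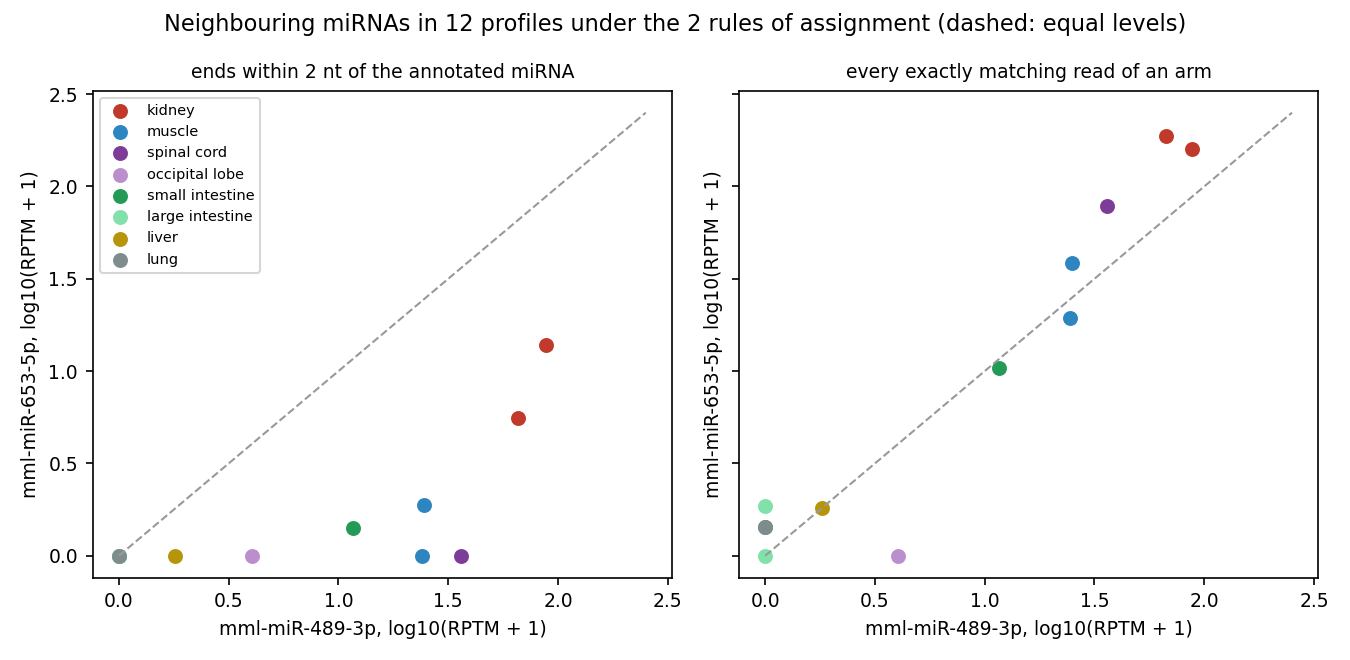
Level of mml-miR-653-5p against that of mml-miR-489-3p in the 12 profiles, both on a log10(RPTM + 1) scale and coloured by tissue. With reads near the annotated ends only (left) r of the log2 values is 0.694, and with every exactly matching read (right) it is 0.956. The dashed line marks equal levels. On the right, both kidney profiles and spinal cord lie above it, at 1.83, 2.84 and 2.20 reads of mml-miR-653-5p for each of mml-miR-489-3p.

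The ratio between the neighbours was not constant. For each read of mml-miR-489-3p, 1.83 and 2.84 reads of mml-miR-653-5p were found in kidney, 2.20 in spinal cord, 0.786 and 1.56 in muscle and 0.885 in small intestine 1. As a share of the reads of both, mml-miR-653-5p took 64.6% in kidney 1 (interval 60.8% to 68.3%) and 74.0% in kidney 2 (70.4% to 77.3%). These intervals did not overlap, so that the profiles of kidney differed from each other by more than counting error. Spinal cord, at 68.8%, lay between them. The lowest shares were 44.0% in muscle 1 (34.7% to 53.8%) and 46.9% in small intestine 1 (33.7% to 60.6%).

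The second pair shared the kidney pattern at very different levels. The level of mml-miR-875-5p was 4.69 RPTM in kidney 1 and 4.55 RPTM in kidney 2, from 12 and 11 reads, and it had no read in the other 10 profiles. For each read of mml-miR-599-5p, 0.0312 and 0.0270 reads of mml-miR-875-5p were found in the kidney profiles by the wider rule. Outside kidney, 0 reads of mml-miR-875-5p stood against 28 of mml-miR-599-5p, which allows a share of up to 12.1% of the reads of both. The absence of mml-miR-875-5p outside kidney was thus not separable from its low level beside mml-miR-599-5p at this depth. Across the pairs, r of mml-miR-489-3p with mml-miR-599-5p was 0.758 with kidney and 0.627 without it by the first rule.

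The arm that was mostly read was 3p in mml-mir-489 but 5p in its neighbour mml-mir-653 and in the second pair. The 5p arm had 0 of the 381 kidney reads of mml-mir-489 by the wider rule, which allows a share of up to 0.998%, and no read in any other profile. In mml-mir-653, by contrast, 96.0% of the reads in kidney 1 and 94.6% in kidney 2 were 5p, with overlapping intervals. In mml-mir-599, 89.7% (86.6% to 92.1%) were 5p in kidney 1 and 98.3% (96.6% to 99.2%) in kidney 2. The difference came with 48 reads of mml-miR-599-3p in kidney 1 and 7 in kidney 2, while the 5p reads were nearly equal at 417 and 408. In mml-mir-875, 24 of 25 kidney reads (96.0%) were 5p. The same inequality of mml-miR-599-3p was seen by the first rule, at 18.4 and 2.89 RPTM. Outside kidney, mml-miR-599-3p had 1 read, in muscle 2.

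**Figure D4:**
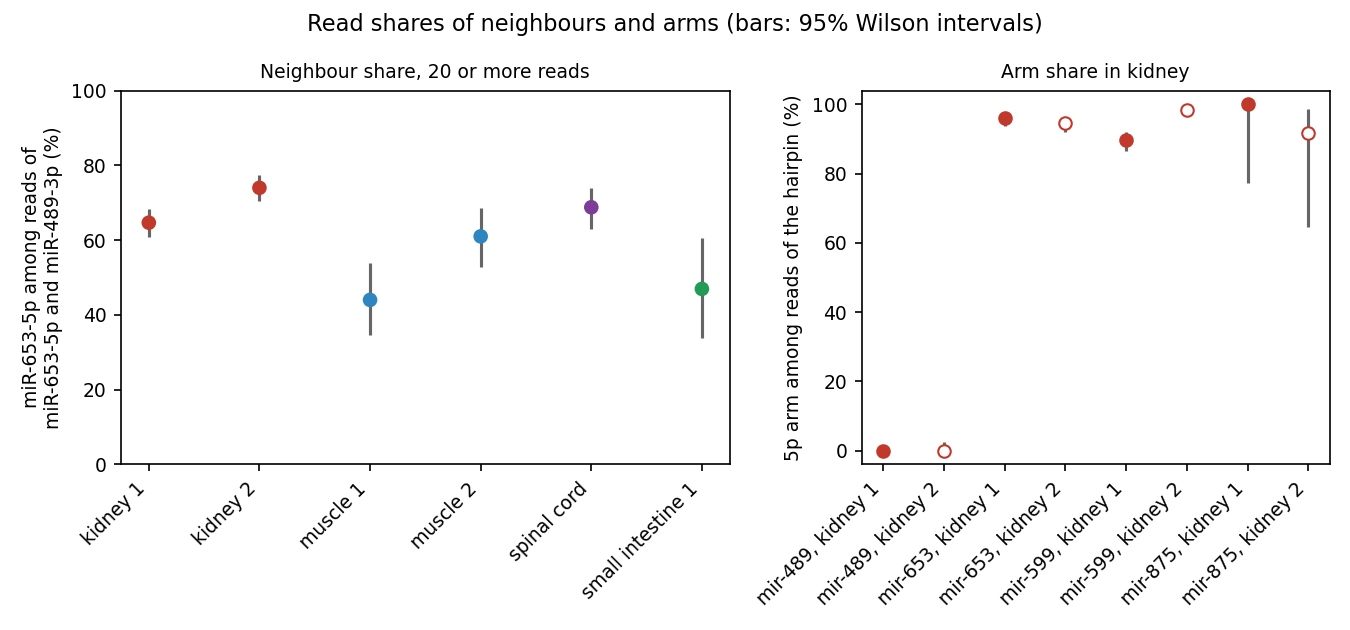
Left, share of mml-miR-653-5p among the reads of mml-miR-653-5p and mml-miR-489-3p in the 6 profiles with at least 20 such reads. Right, share of the 5p arm among the reads of each hairpin in kidney 1 (filled) and kidney 2 (open); vertical bars are 95% Wilson intervals, and those of mir-599 do not overlap.

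The minor arms of mml-mir-653 and mml-mir-599 had shifted starts as well. Of the 58 reads of mml-miR-653-3p, 40 began at the annotated start and 18 began 3 nucleotides downstream. The shifted start made up 12 of 17 reads in kidney 1 and 2 of 26 in kidney 2. Of the 56 reads of mml-miR-599-3p, 35 (62.5%) began 1 nucleotide downstream of the annotated start, and this form shared its seed with mml-miR-592-5p. The single read of mml-miR-875-3p began at its annotated start.

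The ends of the reads of mml-mir-653 were placed on the fold predicted by RNAfold, which had a free energy of -29.6 kcal/mol. Drosha and Dicer usually leave short 3’ overhangs at both ends of the duplex. With the annotated pair of mml-mir-653, the overhang was -1 nucleotide at the base of the hairpin and -2 at the loop, so that the 3’ ends were recessed. With the commonest mml-miR-653-5p read and the annotated mml-miR-653-3p it was 2 nucleotides at both ends. However, the annotated mml-miR-653-3p, of 22 nucleotides, was itself read only 3 times. The commonest reads from its start were 19 and 18 nucleotides long (14 and 10 reads) and ended before the annotated 3’ end. With the commonest reads of both arms the overhang was 5 and 5. It was 2 and 2 when the annotated start of 5p, in its form of 22 nucleotides, was set against the shifted 3p read. The annotated ends of mml-mir-489 had overhangs of 2 and 2. These are predictions from the sequence alone.

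The members could be tested only between tissues outside kidney that had 2 profiles. Each of muscle, small intestine and large intestine was compared with the mean of the 6 other non-kidney tissues by edgeR's quasi-likelihood test with Benjamini-Hochberg adjustment. By the first rule, mml-miR-489-3p and mml-miR-599-5p were the members that passed the filter on low values (a mean of at least 5 RPTM). Outside kidney the mean was 9.61 RPTM for mml-miR-489-3p but 1.19 RPTM for mml-miR-599-5p, which passed the filter only through kidney and is therefore given by its levels alone, without a test. In muscle mml-miR-489-3p was higher, with a log2 fold change of 4.95 (SE 0.90, adjusted p = 0.00146). This fold change depends on the treatment of tissues without reads, and is not a bound. In this comparison 119 of 371 miRNAs were higher (32.1%) and 75 lower (20.2%), so that a call in muscle was common. Without TMM factors, 83 were higher and 106 lower. By the wider rule, mml-miR-653-5p, with a mean of 14.5 RPTM outside kidney, was also higher in muscle, by 4.72 (SE 0.74, adjusted p = 0.000565), beside 31.3% of 425 miRNAs higher and 20% lower.

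The calls in muscle were made against the mean of the log levels of 6 tissues and do not by themselves place muscle highest among them. For mml-miR-653-5p by the wider rule, spinal cord was above both muscle profiles in RPTM, with an interval of 67.0 to 89.4 RPTM that overlapped neither of theirs. For mml-miR-489-3p the interval of spinal cord overlapped those of both muscle profiles. RPTM values carry no TMM factors, which by the first rule were 2.486 in spinal cord and 0.9398 and 0.9651 in muscle. On the scale of the fits spinal cord is thus lower relative to muscle, and the order of these profiles can change. The muscle level of mml-miR-599-5p rested on 15 and 4 reads, and its intervals overlapped that of occipital lobe. The muscle markers mml-miR-1-3p, mml-miR-133a-3p and mml-miR-206-3p together were at 715.3 RPTM in spinal cord, 0.518% of their mean in muscle. Their part in the spinal cord levels was not tested.

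In small intestine the profiles disagreed. Small intestine 1 had 26 reads of mml-miR-489-3p and 23 of mml-miR-653-5p by the wider rule, while small intestine 2 had 0 and 1 at a similar depth. For mml-miR-489-3p the log2 fold change was 2.80 (SE 1.08, adjusted p = 0.0692). By the wider rule it was 2.20 for mml-miR-653-5p (SE 0.88, adjusted p = 0.0807). Neither passed the threshold with edgeR, beside 19.1% of miRNAs higher and 18.9% lower by the first rule and 18.1% and 17.6% by the wider one. Without TMM factors 42 miRNAs were higher and 154 lower, in place of 71 and 70. Without small intestine 2, the value of mml-miR-489-3p was 4.04 (adjusted p = 0.00203) and that of mml-miR-653-5p 3.10 (adjusted p = 0.0178), in fits that take the spread of the lone profile from the other tissues. With both profiles kept, mml-miR-489-3p passed with DESeq2, without a filter and without muscle 1, and mml-miR-653-5p without a filter, so that these calls turned on several choices. The muscle markers together were at 695.6 RPTM in small intestine 1 and 536.1 RPTM in small intestine 2, the neural markers at 942.4 and 991.6 RPTM. Their part in the difference was not tested.

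In large intestine, mml-miR-489-3p and mml-miR-599-5p had no read in either profile, and mml-miR-653-5p had 2 reads by the wider rule. Since large intestine and lung were both without reads of mml-miR-489-3p, the edgeR fit of the 12 profiles could not give a fold change there. None is given here, and values from other settings rest on 0 reads in large intestine. In the comparison over all miRNAs 18.1% were higher and 13.7% lower by the first rule (36 and 165 miRNAs without TMM factors in place of 67 and 51), and 16.2% and 11.8% by the wider one.

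In kidney, the fitted log2 fold change against the mean of the 7 other tissues was 9.83 (SE 0.55) for mml-miR-599-5p and 6.33 (SE 0.76) for mml-miR-489-3p. By the wider rule it was 7.14 (SE 0.64) for mml-miR-653-5p. These values are given without a test, because kidney chose the members. They also depend on the treatment of tissues without reads, and are not bounds. The mean level of mml-miR-489-3p was 75.8 RPTM in kidney and 9.61 RPTM over the 10 other profiles. For mml-miR-599-5p these means were 165 and 1.19 RPTM. By size of the fold change mml-miR-599-5p and mml-miR-489-3p stood at ranks 1 and 3 of 371 miRNAs, which the choice favoured. Over all miRNAs 69 (18.6%) were higher in kidney and 33 (8.89%) lower by the first rule (20.5% and 8.71% by the wider one), or 49 and 108 without TMM factors, which moved the median log2 fold change of all miRNAs from -0.06 to -0.84. A list of 16 miRNAs known from kidney, among them the miR-30 and miR-10 families, served as a comparison. Of these, 14 were higher in kidney, none was lower, and mml-miR-215-5p and mml-miR-203-3p were not called (edgeR). The median log2 fold change of the list was 2.47, or 1.73 without TMM factors, where 11 were higher and 2 lower. By the first rule the fold changes of mml-miR-489-3p and mml-miR-599-5p were above the list's median, which their choice by kidney level favoured. Their levels were far below that of mml-miR-10b-5p, which was at 2.82e+06 RPTM in the lower kidney profile.

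The miRNAs most like the members over the 12 profiles were sought among 371 miRNAs by Pearson's r of log2(RPTM + 1), as a description. For mml-miR-489-3p these were mml-miR-30c-5p (0.799), mml-miR-615-3p (0.777) and mml-miR-10b-3p (0.737). For mml-miR-599-5p they were mml-miR-660-5p (0.734), mml-miR-508-3p (0.719) and mml-miR-10b-3p (0.716). For mml-miR-875-5p they were mml-miR-508-3p (0.746), mml-miR-660-5p (0.711) and mml-miR-363-3p (0.701). Since mml-miR-875-5p was read in kidney only, its r reflects kidney against the other profiles, and kidney chose the members. Its like miRNAs were read elsewhere too, such as mml-miR-660-5p at 334.4 RPTM in liver. For mml-miR-653-5p they were mml-miR-660-5p (0.723), mml-miR-10b-3p (0.699) and mml-miR-508-3p (0.679) by the first rule. By the wider rule its list changed to mml-miR-10b-3p (0.834), mml-miR-615-3p (0.778) and mml-miR-30c-5p (0.777), and no miRNA was as like it as its neighbour mml-miR-489-3p. The most like of them to mml-miR-489-3p, mml-miR-30c-5p, was far higher in level, at 3017 and 1760 RPTM in kidney and 2295 RPTM in spinal cord.

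Lengths, tails and mismatches completed the picture of the reads. With the 12 profiles pooled, the reads of mml-miR-489-3p and mml-miR-653-5p were mostly 22 nucleotides long (67.9% and 68.1%), and those of mml-miR-599-5p 21 nucleotides (76.8%). In muscle 1, however, the reads of mml-miR-489-3p and mml-miR-653-5p were mostly 21 nucleotides long (64.3% of 56 and 63.6% of 44). The commonest read of mml-miR-599-5p ended 1 nucleotide before the annotated 3’ end. Short 3’ tails that did not match the hairpin were found in 10.1% (interval 6.95% to 14.5%) of the mml-miR-489-3p reads in kidney 1 and 19.3% (14.4% to 25.4%) in kidney 2, with intervals that only just overlapped. In both kidney profiles together they made up 5.61% of the reads of mml-miR-653-5p, 10.6% of those of mml-miR-599-5p and 27.3% (9 of 33) of those of mml-miR-875-5p. Among mismatches, the highest A-to-G share in mml-miR-653-5p was 0.524% (7 of 1336 reads), that in mml-miR-489-3p 0.401% (3 of 749) and that in mml-miR-599-5p 0.396% (4 of 1009), with the 12 profiles pooled. Their intervals reached 1.08%, 1.17% and 1.02%. Other changes had higher shares in the same arms. A-to-C reached 0.955% (12 of 1256) in mml-miR-653-5p and 1.34% (10 of 749) in mml-miR-489-3p, and A-to-U 6.35% (8 of 126) in mml-miR-599-5p.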

How the data were processed

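Small RNAs of 12 profiles were sequenced by the authors on an Illumina sequencer. Each deposited file lists unique sequences with their read counts. The authors made it by keeping reads with sequencing scores of at least 30 over the first 25 nucleotides, removing the 3’ adapter and counting identical sequences of at least 18 nucleotides, without normalization. Depth was 22118095 to 25579064 valid reads per profile, which limits the precision of low values to 0.391 to 0.452 RPTM per read. The members, gene lists and tests were chosen with earlier results of these data known.

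Sequences were matched to 832 pre-miRNAs of the study's list in Python 3.11.15 with pandas 2.3.3, numpy 2.4.6 and scipy 1.17.1. No genome sequence was used, so that reads from elsewhere in the genome with the same sequence could not be removed. Reads were counted by the 2 rules of assignment described above, the wider one having been planned for levels and added for the fits after seeing the data. Counts of those miRNAs whose RPTM averaged 5 or more, with an SD of 1 or more, were fitted in R 4.3.3 with edgeR 4.0.16 and TMM factors over 8 tissue groups. An adjusted p under 0.05 was called, and standard errors were derived from the F statistic. Fold changes with a standard error above 5 were left out as not estimable. In simulated data for muscle, an 8-fold change was given to 74 of 371 miRNAs, of which 100% were called, with 3 false calls. Apart from this change, each miRNA had the same mean in all tissues, and the spread between profiles was set alike for all miRNAs. Differences among the other tissues and tissues without reads were not simulated, so that these rates need not hold for the real profiles. DESeq2 1.42.0 was an alternative. Folds were predicted with RNAfold 2.7.2, and figures were drawn with matplotlib 3.10.9. Host and neighbour genes came from a RefSeq table of the assembly T2T-MMU8v2.0, which matched all 4 pre-miRNAs and was used for names and order only, while the study used the assembly Mmul_8.0.1. Sequences of mml-mir-599 and mml-mir-875 are not printed here. The miRNAs named are the members, the 3 most like the leading arm of each, the kidney list and the tissue markers.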

Additional observations from a re-analysis of the deposited data

How the results depend on the processing

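Of the results recomputed under other settings, 182 were taken as unchanged, 74 moved, 6 passed the threshold only under the alternative and 3 changed sign. Unchanged fold changes kept their direction and side of the threshold, or in kidney moved by less than the spread. Unchanged levels moved by less than the spread, and unchanged shares stayed within their interval. Counts were taken as unchanged within a set factor, as for 119 and 81 miRNAs higher in muscle. The wider rule in the fits, and the 8 numbered profiles without a block, were added after seeing the data. The cause of these changes was not tested.

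The kidney log2 fold change of mml-miR-489-3p was 5.53 with valid reads in place of TMM factors, 5.69 with the replicate block and 5.49 without it on the 8 numbered profiles, and 5.98 to 7.19 with 1 profile left out. That of mml-miR-599-5p was 10.04 with 7 groups, 9.59 with DESeq2, 9.74 without a filter, 8.996 with valid reads, 8.98 with the replicate block, 8.92 without it, and 9.34 to 10.07 with 1 profile left out. That of mml-miR-653-5p by the wider rule was 6.45 to 7.71 over its alternatives. The calls in muscle of mml-miR-489-3p, and of mml-miR-653-5p by the wider rule, passed the threshold under each alternative run for them, with fold changes of 4.59 to 5.998 and 4.17 to 5.39 when 1 profile was left out. By the first rule mml-miR-653-5p could be fitted only without a filter, and was not called in muscle (2.71, edgeR adjusted p = 0.292).

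In small intestine, mml-miR-489-3p passed the threshold with DESeq2 (2.82, adjusted p = 0.0272), without a filter (3.01, edgeR adjusted p = 0.000351), without muscle replicate 1 (3.05, adjusted p = 0.0365) and without small intestine replicate 2. By the wider rule mml-miR-653-5p also passed without a filter (2.31, adjusted p = 0.00197). The fitted value of mml-miR-599-5p there, given without a test, was 0.43 and turned to -0.36 with valid reads, -0.42 with the replicate block and -0.45 without it. In large intestine, where mml-miR-489-3p had no read, DESeq2 gave a fold change of -4.15 (adjusted p = 0.0497) and the replicate block -7.47 (edgeR adjusted p = 0.0380). The size of both depends on the treatment of tissues without reads, and the main fit gave no estimate, so that neither is taken as a result.

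The counts of miRNAs called moved as follows. In muscle, 49 were lower with 7 groups and 41 with identical reads only, and 47 to 89 with 1 profile left out, with 85 to 120 higher. In small intestine, 38 were higher and 29 lower with 7 groups, 42 and 39 with identical reads, 42 and 154 with valid reads, and 46 lower with the size factors of DESeq2. With 1 profile left out, 50 to 78 were higher and 15 to 63 lower, the fewest without small intestine replicate 1. In large intestine, 36 and 24 were found with 7 groups, 41 and 32 with identical reads, 36 and 165 with valid reads, and 41 to 70 and 19 to 57 with 1 profile left out.

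The deviations of profiles with the same replicate number correlated at 0.0298 on average (-0.139 to 0.153 over 6 pairs of tissues), so that no shared deviation was seen. This cannot show whether profiles with the same number came from the same animal, because an animal's effect may differ between tissues. With the replicate block on the 8 numbered profiles, 36 miRNAs were higher and 26 lower in small intestine (38 and 23 without the block), and 39 and 26 in large intestine (40 and 26).

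For the kidney levels and shares, other rules of assignment were tried. With identical reads only, the mean level was 52.1 RPTM for mml-miR-489-3p, 0.827 for mml-miR-653-5p, 0.620 for mml-miR-653-3p, 10.98 for mml-miR-599-5p and 2.42 for mml-miR-875-5p. With mismatches and tails allowed, it was 94.6 RPTM for mml-miR-489-3p, 4.04 for mml-miR-653-3p, 192 for mml-miR-599-5p, 6.596 for mml-miR-875-5p and 1.03 for mml-miR-875-3p. With every exactly matching read, it was 173 RPTM for mml-miR-653-5p, 8.70 for mml-miR-653-3p and 4.81 for mml-miR-875-5p. The 5p share of mml-mir-653 in kidney was 78.6% by the first rule, 95.2% with every read and 57.1% with identical reads, where those of mml-mir-599 and mml-mir-875 were 84.4% and 100%. Of the 12 like miRNAs, 6 remained with a pseudocount of 0.1 RPTM, 3 with Spearman's correlation and 4 with TMM-scaled counts, and of the 3 for mml-miR-599-5p 0 remained under any of these settings. Depth limits mml-miR-875-5p outside kidney. In occipital lobe, where mml-miR-653-5p had no read, mml-miR-489-3p had only 7 reads.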
